A study of Mus musculus with 14 samples.

Results

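Fusion-gained regions at gene ends were stretches of open chromatin that carried an ATAC-seq peak in both untreated ZFTA_RELA libraries, carried none in either EmptyVector library, and lay within 1 kb of a start or 3′ end of a protein-coding gene. The peaks of these 4 lists were merged on chromosomes 1 to 19, which gave 72575 regions. Of these, 16194 (22.3%) were gained, and 759 of the gained regions met the position rule. The 759 members were 6.14% of the 12362 regions at gene ends, and they lay at the ends of 765 genes. The members were chosen by the presence of peaks in the ZFTA_RELA and EmptyVector lists, so what those 4 lists show is given as a description without a test, and tests were made only on the other 10 lists.

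The cells were mouse neural stem cells in culture with EGF and FGF-Basic, all described as brain-derived. ZFTA_RELA cells carried the ZFTA-RELA fusion and had a PBS vehicle label, and EmptyVector cells carried an empty vector, labelled with DMSO as vehicle for replicate 1 and with PBS for replicate 2. Fusion cells were also given GSK343, an inhibitor of the histone methyltransferase EZH2, at 10 µM for 96 h (ZFTA_RELA_GSK), or citraconate, a structural relative of itaconate described as an antagonist of ACOD1, at 10 mM (ZFTA_RELA_dmCitra), and were set against ZFTA_RELA_DMSO, whose titles name DMSO while the treatment label names PBS. A further pair of groups, marked 50K in the titles, held Citraconate_50K at 10 mM with a fusion label and DMSO_50K with an empty-vector label, so the effects of citraconate and of the labelled cell line cannot be told apart in that pair. The exposure time of each citraconate library is not given, nor are the promoter of the transgene, the number of clones and whether replicates came from separate cultures, so the spread between the 2 libraries of a group may be technical.

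ATAC-seq uses the Tn5 transposase to place sequencing adapters in accessible DNA, so a peak marks DNA that is free of tightly packed nucleosomes. Active promoters, above all those rich in CpG dinucleotides, are open in most cell types, whereas many CpG-poor promoters and distal elements open only where the right transcription factors bind. The fusion joins ZFTA, a zinc finger protein, to RELA, the activating subunit of NF-kB, and drives a form of supratentorial ependymoma. NF-kB switches on chemokine, cytokine and interferon-related genes in inflammation, and AP-1, a dimer of FOS and JUN proteins, is known for opening enhancers and inducible promoters.

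The promoter sequences below are shown because they carry the matches on which the motif results turn. Each is the 250 bases before a gene's start, read 5′ to 3′ on the gene's strand, from RefSeq on GRCm38.p6, which shares its coordinates with mm10. The first set holds the listed inflammatory genes whose promoter stretch, overlapped by a member, had an NF-kB match, marked in capitals. Cxcl1 lay at chr5:90890995-90891244 on the plus strand, Cxcl10 at chr5:92348890-92349139 on the minus strand and Gbp5 at chr3:142496684-142496933 on the plus strand.
Cxcl1: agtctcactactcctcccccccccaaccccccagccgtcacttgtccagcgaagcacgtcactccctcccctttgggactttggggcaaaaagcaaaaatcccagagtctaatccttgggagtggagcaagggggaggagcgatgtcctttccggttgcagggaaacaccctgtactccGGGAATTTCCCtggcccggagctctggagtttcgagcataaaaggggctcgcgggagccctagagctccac
Cxcl10: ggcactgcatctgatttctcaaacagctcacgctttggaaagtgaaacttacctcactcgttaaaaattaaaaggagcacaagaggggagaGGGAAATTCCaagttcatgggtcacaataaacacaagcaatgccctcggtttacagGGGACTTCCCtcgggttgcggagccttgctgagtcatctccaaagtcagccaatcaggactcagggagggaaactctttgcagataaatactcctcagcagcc
Gbp5: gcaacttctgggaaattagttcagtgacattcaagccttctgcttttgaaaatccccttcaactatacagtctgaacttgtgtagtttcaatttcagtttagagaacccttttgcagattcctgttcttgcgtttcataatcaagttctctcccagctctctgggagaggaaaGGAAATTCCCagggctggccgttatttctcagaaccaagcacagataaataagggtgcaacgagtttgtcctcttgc
The second set holds the 3 best-ranked members with an AP-1 match, the letters TGANTCA on either strand, inside the 250 bases printed, in capitals. Cadm3 lay at chr1:173367696-173367945 on the minus strand, Ifi203 at chr1:173942493-173942742 on the minus strand and Dhrs9 at chr2:69380212-69380461 on the plus strand.
Cadm3: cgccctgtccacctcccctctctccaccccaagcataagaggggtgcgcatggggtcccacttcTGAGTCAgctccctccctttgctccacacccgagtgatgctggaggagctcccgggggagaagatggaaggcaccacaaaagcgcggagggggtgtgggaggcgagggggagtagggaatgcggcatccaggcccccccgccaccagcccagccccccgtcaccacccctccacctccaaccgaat
Ifi203: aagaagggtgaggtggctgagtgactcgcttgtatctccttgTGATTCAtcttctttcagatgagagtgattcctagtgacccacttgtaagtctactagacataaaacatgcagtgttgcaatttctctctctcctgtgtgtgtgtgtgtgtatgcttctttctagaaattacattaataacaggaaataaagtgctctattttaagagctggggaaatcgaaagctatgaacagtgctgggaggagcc
Dhrs9: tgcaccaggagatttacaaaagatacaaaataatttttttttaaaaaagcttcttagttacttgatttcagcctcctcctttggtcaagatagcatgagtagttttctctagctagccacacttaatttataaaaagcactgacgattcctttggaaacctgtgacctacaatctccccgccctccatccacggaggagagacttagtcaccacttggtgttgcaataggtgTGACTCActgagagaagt
The third set holds the 2 best-ranked members over a CpG-rich promoter, with each CG in capitals. Six2 lay at chr17:85688255-85688504 on the minus strand and Man1a at chr10:54075738-54075987 on the minus strand.
Six2: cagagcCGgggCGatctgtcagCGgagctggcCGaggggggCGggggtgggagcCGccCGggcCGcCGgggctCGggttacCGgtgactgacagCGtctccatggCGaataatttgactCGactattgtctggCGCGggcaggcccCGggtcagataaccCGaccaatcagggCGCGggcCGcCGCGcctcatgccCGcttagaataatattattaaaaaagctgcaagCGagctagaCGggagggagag
Man1a: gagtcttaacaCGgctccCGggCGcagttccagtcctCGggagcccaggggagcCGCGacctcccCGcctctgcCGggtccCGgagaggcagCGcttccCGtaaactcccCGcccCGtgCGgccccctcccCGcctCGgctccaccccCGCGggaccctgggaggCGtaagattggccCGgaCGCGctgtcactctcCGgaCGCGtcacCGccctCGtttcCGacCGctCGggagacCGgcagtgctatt
In Cxcl1 the capitals hold 2 matches that overlap, and in Cxcl10 they hold 2 separate matches. The Cxcl10 stretch also held an AP-1 match whose first base was at -74 from the start. Ifi203 had 2 CG dinucleotides in its 300-base promoter window, whereas Six2 had 37.

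The deposited lists differed in length, with 12554 to 60472 peaks each, and they give peaks without read counts: sequencing depth behind each list is therefore unknown, and counting error cannot be stated. The 2 ZFTA_RELA_DMSO lists were short, at 11806 and 20051 peaks on chromosomes 1 to 19, with median peak widths of 229 and 187 bp. The 2 ZFTA_RELA_GSK lists stood apart from each other, at 18324 and 55369 peaks. A check of the labels gave mixed results. Sox1 and Sox2, transcription factors that define neural stem cells, had a peak at a gene end only in the 2 EmptyVector lists of the 14. Nes, the neural stem intermediate filament gene, had one in both EmptyVector lists and in Citraconate_50K replicate 1. Of other neural stem genes, Vim had one in all 14 lists and Pax6 in none. The DMSO_50K libraries, labelled as empty vector, had a peak in 75.2% and 83.0% of the members. The EmptyVector lists had none by the rule, so that contrast cannot test the label. The DMSO_50K lists lacked the Sox1, Sox2 and Nes peaks of the EmptyVector lists. Of 26 neural stem genes, 18 and 18 had a gene-end peak in DMSO_50K, against 16 and 15 in ZFTA_RELA and 22 and 23 in EmptyVector. The other fusion-labelled lists ranged from 4 in ZFTA_RELA_DMSO replicate 1 to 20 in ZFTA_RELA_GSK replicate 2. DMSO_50K also had a peak in 25.65% and 30.83% of the gene-end regions in both EmptyVector and neither ZFTA_RELA list. The fusion-labelled lists not used by the rule ranged from 0.2729% of these regions in ZFTA_RELA_DMSO replicate 1 to 35.2% in ZFTA_RELA_GSK replicate 2. Whether the label is right was not tested.

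Most members were narrow regions beside, not across, a gene end. Their median width was 505 bp (range 164 to 4584 bp), against 1218 bp for the 8555 gene-end regions found in all 4 lists (shared regions), 583 bp for the 733 gene-end regions in both EmptyVector and neither ZFTA_RELA list (lost regions, 5.93% of gene-end regions), and 466 bp for the 15435 fusion-gained regions away from gene ends. Only 255 members (33.6%) covered the end itself, against 89.7% of shared and 48.2% of lost gene-end regions. The strand of the gene was known for 614 members. Of these, 357 (58.1%) were nearest to a gene start and 257 (41.9%) to a 3′ end, whereas 97.1% of shared gene-end regions with a known strand were nearest to a start. These differences between classes were not tested.

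Within the ZFTA_RELA lists the members were peaks of middling strength. The authors' fold enrichment over background had a median of 9.59 (range 4.26 to 60.2) in replicate 1 and 9.14 (range 4.30 to 67.8) in replicate 2. The median member stood at the 45.5th percentile of the replicate 1 list and the 42.9th of the replicate 2 list by −log10 q, near the middle. Gained regions away from gene ends were also near the middle, at the 51.4th and 49.4th percentiles, while shared gene-end regions stood at the 81.4th percentile in both. The best summits of the 2 lists lay a median of 41 bp apart, and within 100 bp of each other in 614 members (80.9%). At the edge of the 1 kb limit, the member at Rarg lay 999 bp from the gene's end with folds of 7.46 and 10.2, and the gained region at Gpr142 lay just outside at 1001 bp with folds of 9.05 and 9.68.

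The strongest members lay at genes of varied function. The best-ranked member by the poorer of its 2 percentiles lay 153 bp from the 3′ end of Spef1l (chr7:139970930-139972145), with folds of 60.2 and 67.8 in the ZFTA_RELA lists. It was followed by members at Gorab, which encodes a Golgi protein, Slc6a19, a neutral amino acid transporter of gut and kidney, Styk1, a kinase-like receptor, and Jph1, a junctional membrane protein of muscle. The first 20 also held the gene starts of the transcription factor genes Six2 and Dach1, the adhesion genes Cadm3 and Pcdh7, and St8sia4, which encodes an enzyme that builds polysialic acid. The others of the first 20 lay at Daam2 and Mocs1 (1 region), Man1a, Slamf8, Ifi203, Zfp820, Gm4925, Cpa6, Stau2, Plcb1 and Sertad4. All 20 had folds of at least 29.3 in replicate 1 and 29.0 in replicate 2, and each had a peak in at least 7 of the 10 lists that the rule did not use, 11 of them in all 10.

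At Six2, a homeobox gene of kidney progenitors, the region at chr17:85687881-85688944 covered the gene start. Its folds were 41.0 and 40.3 in the ZFTA_RELA lists. It had a peak in all of the other 10 lists, with folds of 5.83 and 21.1 in ZFTA_RELA_GSK, 20.2 and 20.2 in ZFTA_RELA_dmCitra, 7.92 and 11.7 in ZFTA_RELA_DMSO, 9.36 and 9.44 in Citraconate_50K, and 37.9 and 34.2 in DMSO_50K. These folds are each list's own values, and the lists were not scaled to each other, so that they show presence and not a change in openness. Cadm3, a neuronal adhesion gene, was likewise open at its start in all 10 lists, with folds of 6.996 and 25.91 in ZFTA_RELA_GSK, 37.9 and 32.4 in ZFTA_RELA_dmCitra, and 8.97 and 12.2 in ZFTA_RELA_DMSO. At the other extreme, 15 members had a peak in no list but the 2 ZFTA_RELA ones. Among these was the start of Fbp2, which encodes a fructose bisphosphatase of muscle, with folds of 6.92 and 10.2, and a region at the 3′ end of Sec23b, a gene for a vesicle coat protein, with folds of 12.8 and 12.4. Gm52787, Ptger1, a prostaglandin receptor gene, and Adamts1, a secreted protease gene, held 3 more.

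Inflammatory genes were among those with a member at an end. Of 22 genes on a list of NF-kB targets and regulators that had any region at a gene end, 7 held a member, which was 31.8% of them, against 6.404% of the 11945 protein-coding genes with such a region. The list of chemokines and cytokines held 7 of 19, and the interferon list held 8 of 28. The first and second lists share Ccl2, Cxcl1, Cxcl10, Tnf and Lta, and Tnf and Lta share 1 region. The lists were drawn up with earlier results of these data known, the Ifi200 genes of the interferon list among them, so these counts are not independent evidence.

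Among the chemokine genes, Cxcl10, which encodes a ligand that draws T cells, was covered at its start by the region chr5:92348764-92349175, with folds of 21.8 and 22.6 in the ZFTA_RELA lists. It also had a peak in ZFTA_RELA_GSK replicate 2 (fold 12.3), both ZFTA_RELA_dmCitra lists (11.4 and 11.1), ZFTA_RELA_DMSO replicate 2 (6.61), Citraconate_50K replicate 1 (9.36) and both DMSO_50K lists (18.4 and 22.7). Cxcl1, which encodes a ligand that draws neutrophils, had folds of 17.6 and 16.1 in ZFTA_RELA and a peak in ZFTA_RELA_GSK replicate 2 (10.6), both ZFTA_RELA_dmCitra lists (18.2 and 16.5) and ZFTA_RELA_DMSO replicate 2 (6.10). Cxcl1 thus had no peak in any of the 4 lists marked 50K. Ccl2, a monocyte attractant, showed yet another pattern, with a peak in both Citraconate_50K lists (7.80 and 12.8) and neither DMSO_50K list.

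Members at cytokine and receptor genes ranged from a peak in all 10 lists that the rule did not use to a peak in few of them. The region at the start of Tnf and near Lta, which encode tumor necrosis factor and lymphotoxin, had low folds of 7.46 and 7.53 in ZFTA_RELA, yet it had a peak in all 10 other lists. Cd40, a receptor that signals to NF-kB, had one in 9 of the 10. In contrast, the member 644 bp from the 3′ end of Tnfaip3, an inhibitor of NF-kB, recurred only in the 2 DMSO_50K lists, with folds of 31.8 and 32.4. Il1rn, which encodes the interleukin 1 receptor antagonist, recurred in 4 lists and Ccl17, another chemokine gene, in 2.

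Of the interferon genes, Zbp1, a sensor of Z-form nucleic acid, had folds of 29.3 and 26.4 in ZFTA_RELA and a peak in all 10 other lists. Ifitm3, an antiviral membrane protein gene, held 2 members, 1 at its start and 1 at 49 bp from its 3′ end, which recurred in 7 and 8 lists. Irf7, a transcription factor that drives interferon genes, recurred in 8 lists, Isg20, an exonuclease gene, in 7, Irf5 in 6, and Gbp5, a guanylate-binding protein gene, in 5. The plot of listed genes shows that ZFTA_RELA_GSK replicate 1 and ZFTA_RELA_DMSO replicate 1, the 2 shortest lists, lacked most of them.

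**Figure D1:**
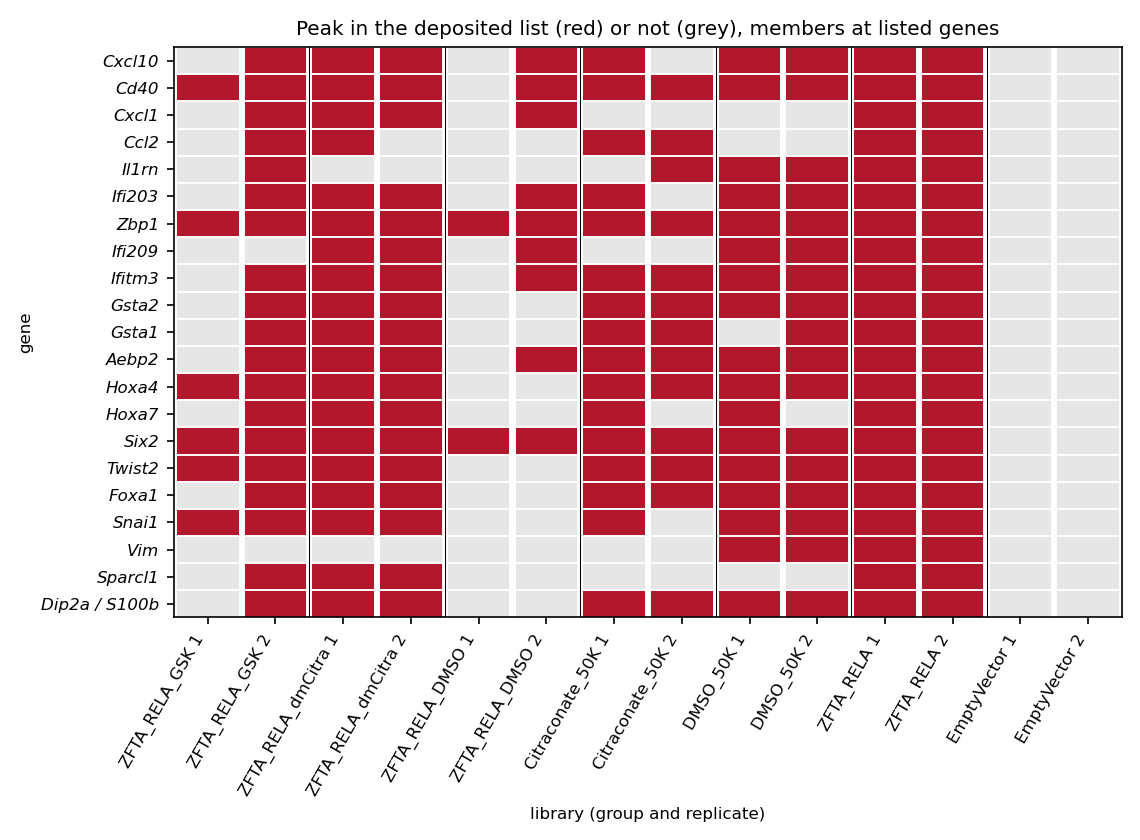
Presence (red) or absence (grey) of a peak in each of the 14 deposited lists for members at listed genes, up to 4 for each list and with 2 labels at shared regions. Rows are genes and columns are libraries. Six2 and Zbp1 are red in all 10 lists that did not choose the members, while Vim is red only in DMSO_50K among these.

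The counts of the other lists are also to be read beside the 6.404% of all genes. Of 23 developmental transcription factor genes with a gene-end region, 5 (21.7%) held a member: Six2, Twist2, Snai1, Foxa1 and Tbx15. Twist2, a regulator of mesenchyme, recurred in 8 lists, and the 2 regions of Snai1, a repressor of epithelial genes, recurred in 6 and 7. Of 4 Hox genes with a region, Hoxa4 and Hoxa7, which set position along the body axis, each held one (50.0%), recurring in 8 and 5 lists. The NRF2 list had 2 of 21 (9.52%), the glutathione transferase genes Gsta1 and Gsta2, which sit in 1 family of similar copies, and the Polycomb list had 1 of 18 (5.56%), Aebp2, which encodes a cofactor of the EZH2 complex. None of the 20 fusion-associated genes with a region held a member, and the same was found for the 25 itaconate and citric acid cycle genes, the 10 motile cilia genes and the 18 housekeeping genes, lists too short to read a count of 0 against a share of 6.404%. Acod1, which encodes the enzyme that makes itaconate, had a gene-end peak in both ZFTA_RELA lists and in EmptyVector replicate 2. The gene also had one in both ZFTA_RELA_dmCitra lists, both DMSO_50K lists and replicate 2 of ZFTA_RELA_DMSO and of ZFTA_RELA_GSK. Acod1 held no member.

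Markers of other cell types gave 3 genes. Of 23 neural stem genes with a region, 10 had a lost region and 1 (4.35%), Vim, had a member, 901 bp from its 3′ end. The folds of the Vim member were 5.33 and 4.30, close to the lowest among members, and this region recurred only in DMSO_50K (5.58 and 6.93). Of 8 astrocyte genes, S100b and Sparcl1 had one (25.0%). The neuron list (11 genes with a region), oligodendrocyte list (5), microglia and macrophage list (4), mesenchymal list (7) and epithelial list (2) had none.

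Some members lay in groups along the chromosomes. The largest group with gaps of at most 500 kb lay on chromosome 1 and held 12 members, of the 21 gene-end regions in its span. The members included regions at the interferon-inducible Ifi200 genes (Ifi202b, Ifi203, Ifi205, Ifi206, Ifi208, Ifi209 and Ifi214), Aim2, which senses DNA in the cytosol, the neighbouring Cadm3, and 2 regions at Olfr433. Of these 12, 1 had a peak in both ZFTA_RELA_GSK lists, 10 in both ZFTA_RELA_dmCitra lists and 2 in both ZFTA_RELA_DMSO lists. In both Citraconate_50K lists 3 had one, against 9 in both DMSO_50K lists. Over all members, these shares were 15.15% for ZFTA_RELA_GSK, 70.49% for ZFTA_RELA_dmCitra, 7.773% for ZFTA_RELA_DMSO, 38.47% for Citraconate_50K and 72.2% for DMSO_50K. Ifi203 had the highest folds of the Ifi200 genes, at 34.1 and 38.7 in ZFTA_RELA, and it recurred in 7 of the 10 lists. Chromosome 15 had a group of 6 members at Jrk, Psca, Ly6a, Ly6c1 and Ly6c2 and one of 5 at Zfp7, Apol6, Apol7a, Apol9a and Apol9b. In both chromosome 15 groups 1 member had a peak in both ZFTA_RELA_dmCitra lists, whereas all 6 and all 5 had one in both DMSO_50K lists. A group of 5 on chromosome 13 and one of 5 on chromosome 7 went the other way. There 4 and 5 members had a peak in both ZFTA_RELA_dmCitra lists, against 2 and 3 in both DMSO_50K lists. The group on chromosome 7 held Trim30a and Trim30c. These families, the Gm genes of a group on chromosome 5 included, consist of similar copies, so the assignment of their reads is uncertain. By chromosome, members made up from 3.22% of gene-end regions on chromosome 4 to 9.73% on chromosome 1.

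The promoters that members covered were poor in CpG. Members overlapped 209 RefSeq promoter windows of 191 genes, each reaching from 250 bases before to 50 bases after the start, of 20056 windows in all. Their median observed-to-expected CpG ratio was 0.384, against 0.820 for windows under shared gene-end regions, 0.641 under lost ones and 0.586 for all windows. A ratio of 0.6 or more was found in 28.2% of the windows under members, in 84.4% under shared regions, in 55.1% under lost regions and in 48.9% of all. The distribution of this ratio shows the windows under members on the left and those under shared regions on the right. Six2 (1.13) and Man1a (0.966) were among the CpG-rich exceptions, and Ifi203, Gbp5 (0.332) and Cxcl1 (0.397) among the CpG-poor majority.

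**Figure D2:**
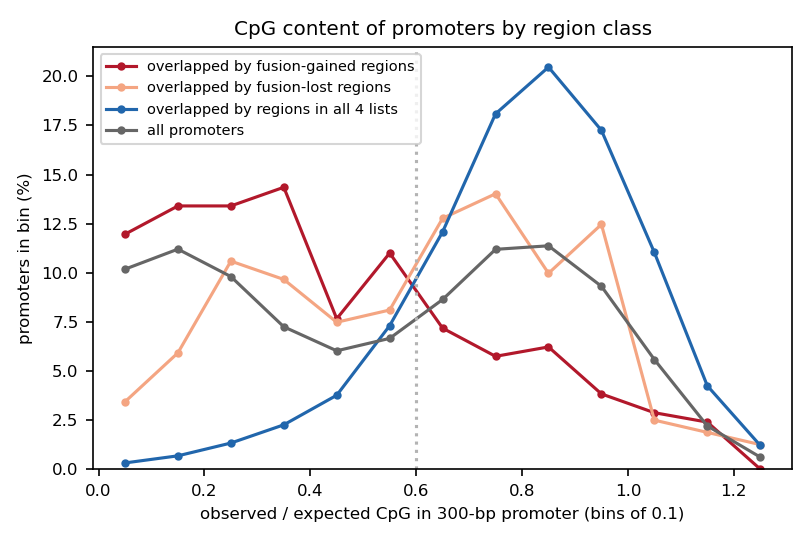
Share of promoter windows (percent, y axis) by observed-to-expected CpG ratio in bins of 0.1 (x axis) for windows overlapped by members (209), lost gene-end regions (321) and shared gene-end regions (8296), and for all 20056 windows. The median is 0.384 under members and 0.820 under shared regions, and the dotted line marks 0.6.

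Of the motifs searched, AP-1 letters stood in 23.4% of these promoters. TGANTCA, which reads as itself on both strands apart from its middle base, was present in 49 of the 209 windows under members, in 3.58% under shared regions, in 3.12% under lost regions and in 7.06% of all windows. Because this motif is also more frequent in CpG-poor windows, the shares were taken again among windows with a ratio below 0.6, where it was present in 43 of 150 under members (28.7%), 6.04% under shared regions, 4.86% under lost regions and 10.5% of all. It lay close to the summits: in the 132 windows that held the ZFTA_RELA replicate 1 summit, 38 had a match, at a median of 35 bp from the summit and within 50 bp in 25 of them (65.8%). For the E-box letters CANNTG the median was 51.5 bp, and for the NF-kB motif, found in 12 of these windows, 54.0 bp.

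The NF-kB motif itself was present in 16 of the 209 windows (7.66%), against 5.14% under shared regions, 6.54% under lost regions and 4.93% of all windows. Besides Cxcl1, Cxcl10 and Gbp5, the genes with such a match included Casp4 and Nlrp3 of the inflammasome, Tnip1 and Tnip3, which restrain NF-kB, and Esr2, an estrogen receptor gene. The letters TATAAA were found in 12.9% of the windows under members and 12.7% of all, CANNTG in 69.9% and 68.7%, GGAATG, the core bound by TEAD factors, in 19.6% and 13.4%, and TGTGGT, the core bound by RUNX factors, in 19.1% and 14.8%. The NFI motif was in 0 windows under members and 0.0349% of all. Among windows with a CpG ratio below 0.6, the NF-kB motif was in 14 of 150 under members (9.33%). The motif was in 6.115% under shared regions, 5.56% under lost regions and 4.57% of all such windows. There TATAAA was in 15.3% under members and 19.6% of all, and CANNTG in 75.3% and 78.5%. GGAATG was in 22.7% and 16.7%, and TGTGGT in 24.7% and 19.95%. All motifs were searched on both strands. A match gives letters and not binding, and the shares of the different classes were not tested against each other.

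**Figure D3:**
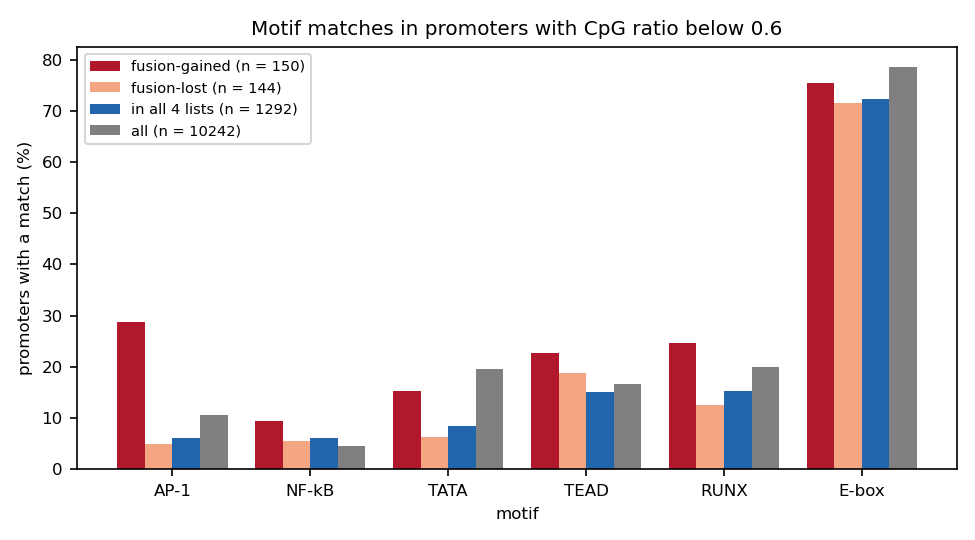
Percent of promoter windows with at least 1 match (y axis) for 6 motifs (x axis), among windows with an observed-to-expected CpG ratio below 0.6, by the class of region that overlaps them. AP-1 letters were in 28.7% of windows under members, against 6.04% under shared regions and 10.5% of all.

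Most members recurred in libraries that the rule did not use. The number of these 10 lists with a peak had a median of 5, and 473 members (62.3%) had a peak in at least 5. Both ZFTA_RELA_dmCitra lists had a peak in 535 members (70.5%) and both DMSO_50K lists in 548 (72.2%), and 412 members (54.3%) had one in all 4 of these. Both ZFTA_RELA_GSK lists shared a peak in 115 members, both ZFTA_RELA_DMSO lists in 59 and both Citraconate_50K lists in 292. Only 26 members had a peak in all 10. Recurrence of this size was not particular to members. In ZFTA_RELA_dmCitra the mean share with a peak was 78.8% of members. It was 80.6% of all gene-end regions, 78.7% of gained regions away from gene ends and 50.0% of all regions. In DMSO_50K the shares were 79.1% of members, 83.5% of all gene-end regions, 78.05% of gained regions away from gene ends and 55.2% of all regions.

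**Figure D4:**
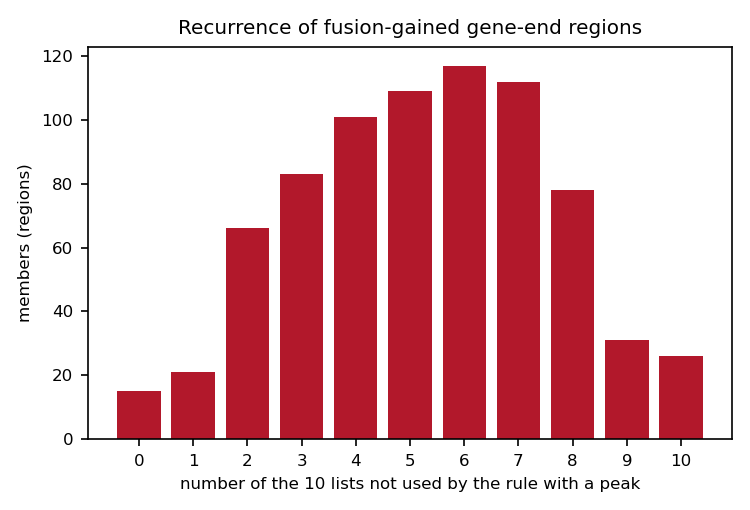
Number of members (y axis) by how many of the 10 lists not used by the rule had a peak in them (x axis). The counts run from 15 members in no list, through the highest bar of 117 members in 6 lists, to 26 members in all 10.

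The first comparison set inhibition of EZH2 against its control in fusion cells. A peak was present in 15.4% and 63.5% of the members in the ZFTA_RELA_GSK lists, against 10.9% and 22.0% in the ZFTA_RELA_DMSO lists. One ZFTA_RELA_GSK library thus lay between the controls and the other far above them, in the order of their list lengths. The means were 39.5% ± 34.0 in ZFTA_RELA_GSK and 16.5% ± 7.82 in ZFTA_RELA_DMSO (SD, n = 2 each), a difference of 23.0 percentage points that did not exceed the spread (two-sided exact permutation test, p = 0.667, where 2 against 2 libraries cannot give less than 0.3333). Adjusted over the 3 comparisons by the Benjamini-Hochberg method, the exact p-values were 0.667 for GSK343 and 0.5 for each citraconate comparison. With all lists reduced to their 11806 best peaks the difference was -0.86 points, and without ZFTA_RELA_GSK replicate 2 it was -1.05 points.

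Single members were called where both libraries of one group and neither of the other had a peak. In ZFTA_RELA_GSK 63 members (8.30%) were called higher than in ZFTA_RELA_DMSO. The shares called higher were 4.65% of all regions, 15.1% of all gene-end regions and 2.15% of gained regions away from gene ends. Called lower were 8 members (1.05%), against 0.537% of all regions, 0.105% of gene-end regions and 1.87% of gained regions away from gene ends. Those higher were led by Cdc40, a splicing factor gene, Lcp1, an actin-bundling gene of blood cells, the homeobox genes Hmx3 and Hoxa4, and Ndst3, a heparan sulfate enzyme gene. At Lcp1 the folds were 9.72 and 20.1 in ZFTA_RELA_GSK. Those lower were led by Scel, which encodes a protein of the epithelial cell envelope, Tmprss2, a membrane protease gene, Cntf, a neurotrophic factor gene, Spx and Lrig1. At Tmprss2 the ZFTA_RELA_DMSO folds were 7.39 and 7.12, and the region also had a peak in both ZFTA_RELA_dmCitra lists (14.01 and 7.959).

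The recurrence of members was also read by the CpG content of the promoter window they overlapped. Of the 55 members over a promoter window with a ratio of 0.6 or more, 54.5% had a peak in ZFTA_RELA_GSK replicate 1 and 96.4% in replicate 2, against 18.7% and 80.6% of the 134 members over CpG-poor windows. In ZFTA_RELA_DMSO the shares were 9.09% and 27.3% for the CpG-rich and 14.2% and 29.9% for the CpG-poor members. In ZFTA_RELA_dmCitra they were 89.1% of the CpG-rich and 79.1% of the CpG-poor members in each list, and in Citraconate_50K 65.5% and 55.2% in each list. In DMSO_50K they were 83.6% of the CpG-rich members in each list, and 85.1% and 88.8% of the CpG-poor ones. Shared gene-end regions also differed in ZFTA_RELA_GSK replicate 1, with a peak in 90.8% of the CpG-rich and 73.0% of the CpG-poor ones. Members over a window with TGANTCA had a peak in 11.1% (replicate 1) and 75.6% (replicate 2) of 45 cases in ZFTA_RELA_GSK. Members over a window without it had one in 34.7% and 88.2% of 144. The ZFTA_RELA_DMSO shares were 8.89% and 28.9% with it and 13.9% and 29.2% without. The split by TGANTCA was not matched for CpG content. Neither these differences nor the part of list length in them was tested.

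The second comparison set citraconate against the same control in fusion cells. A peak was present in 80.6% and 76.9% of the members in the ZFTA_RELA_dmCitra lists, against the 10.9% and 22.0% in ZFTA_RELA_DMSO, and the groups did not overlap. The same held over all regions, with 50.9% and 49.2% in ZFTA_RELA_dmCitra against 13.7% and 21.3% in ZFTA_RELA_DMSO, and over all gene-end regions, with 81.0% and 80.2% against 36.0% and 50.0%, so the lack of overlap was not a feature of the members. The means were 78.8% ± 2.61 and 16.5% ± 7.82 (SD, n = 2 each), a difference of 62.3 points (two-sided exact permutation test, p = 0.3333, the smallest possible). List length moved with it, since the ZFTA_RELA_dmCitra lists held 44206 and 42591 peaks, and at 11806 peaks each the difference was 6.32 points, with 18.4% and 16.2% in ZFTA_RELA_dmCitra against 10.9% and 11.1% in ZFTA_RELA_DMSO. Against ZFTA_RELA, where every member has a peak by the rule, the difference was -21.2 points.

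In ZFTA_RELA_dmCitra 364 members (48.0%) were called higher than in ZFTA_RELA_DMSO. The shares called higher were 23.3% of all regions, 24.9% of gene-end regions and 44.1% of gained regions away from gene ends. No member was called lower, where 0.165% of all regions and 0.0485% of those at gene ends were. The higher members were led by Naa11, an acetyltransferase gene, with folds of 43.1 and 36.1, Cdc40, Pla1a, a phospholipase gene, Ifi206 and Lcp1. GSK343 and citraconate share the ZFTA_RELA_DMSO control, so Cdc40 and Lcp1, called in both, rest on the same absence there. The ZFTA_RELA_DMSO lists were short (11806 and 20051 peaks), and neither set of calls was counted at equal list length.

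The third comparison took the libraries marked 50K, where citraconate and the cell line label differ together. A peak was present in 49.5% and 49.8% of the members in Citraconate_50K, against 75.2% and 83.0% in DMSO_50K, with no overlap. Over all regions the shares were 35.1% and 33.5% in Citraconate_50K against 52.5% and 57.9% in DMSO_50K, also without overlap. The means were 49.7% ± 0.184 and 79.1% ± 5.49 (SD, n = 2 each), a difference of -29.5 points (two-sided exact permutation test, p = 0.3333, the smallest possible). The Citraconate_50K lists were also shorter, at 30735 and 28580 peaks against 51099 and 58475, and at equal length the difference was -3.16 points. Here 8 members (1.05%) were called higher. The shares called higher were 0.719% of all regions, 0.453% of gene-end regions and 1.10% of gained regions away from gene ends. Called lower were 151 members (19.9%), against 16.2% of all regions, 4.26% of gene-end regions and 31.2% of gained regions away from gene ends.

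The members called higher in Citraconate_50K were led by Fam50b, Ccl2, Ints7, Rundc3b and Pkd2l2. At Ints7, a gene of the Integrator complex, the folds were 7.28 and 8.88 in Citraconate_50K. The lower ones were led by Klra2, a natural killer cell receptor gene, Cdc40, Ifi205, Ifi209 and Scel. At Ifi209 the DMSO_50K folds were 29.0 and 35.6, and the same region had a peak in both ZFTA_RELA_dmCitra lists (13.0 and 13.3). Of the members over a TGANTCA window 44.4% had a peak in each Citraconate_50K list, against 62.5% of those over windows without it. In DMSO_50K the shares were 86.7% and 84.4% with it and 84.03% and 88.19% without. The other citraconate group, ZFTA_RELA_dmCitra, had 77.8% and 86.7% with it and 83.3% and 80.6% without. These contrasts were not tested, and they were not matched for CpG content. Of the 49 windows under members with TGANTCA, 43 had a CpG ratio below 0.6.

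Members and fusion-gained regions away from gene ends obey the same peak rule, so the 10 other lists can set them against each other within a library. Members had the higher share in both ZFTA_RELA_GSK lists (by 9.12 and 12.4 points) and both Citraconate_50K lists (by 9.21 and 12.1 points). The differences were near 0 in ZFTA_RELA_dmCitra (0.89 and -0.66 points) and DMSO_50K (0.34 and 1.80 points), and members had the lower share in ZFTA_RELA_DMSO (-3.27 and -5.30 points). The mean was 3.65 points (SD 6.46 over 10 libraries), with members higher in 7 of the 10, which did not pass 0.05 (two-sided exact sign-flip permutation test, p = 0.104). At equal list length the mean turned to -0.469 points (exact p = 0.766), and over the 5 group means the exact p was 0.312. In 2 alternatives chosen after the data were seen, it was 5.64 points without the ZFTA_RELA_DMSO libraries (exact p = 0.0234) and 4.30 points without the DMSO_50K libraries (exact p = 0.125). Libraries of a group are not independent of each other, so the p-values over libraries are too small.

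**Figure D5:**
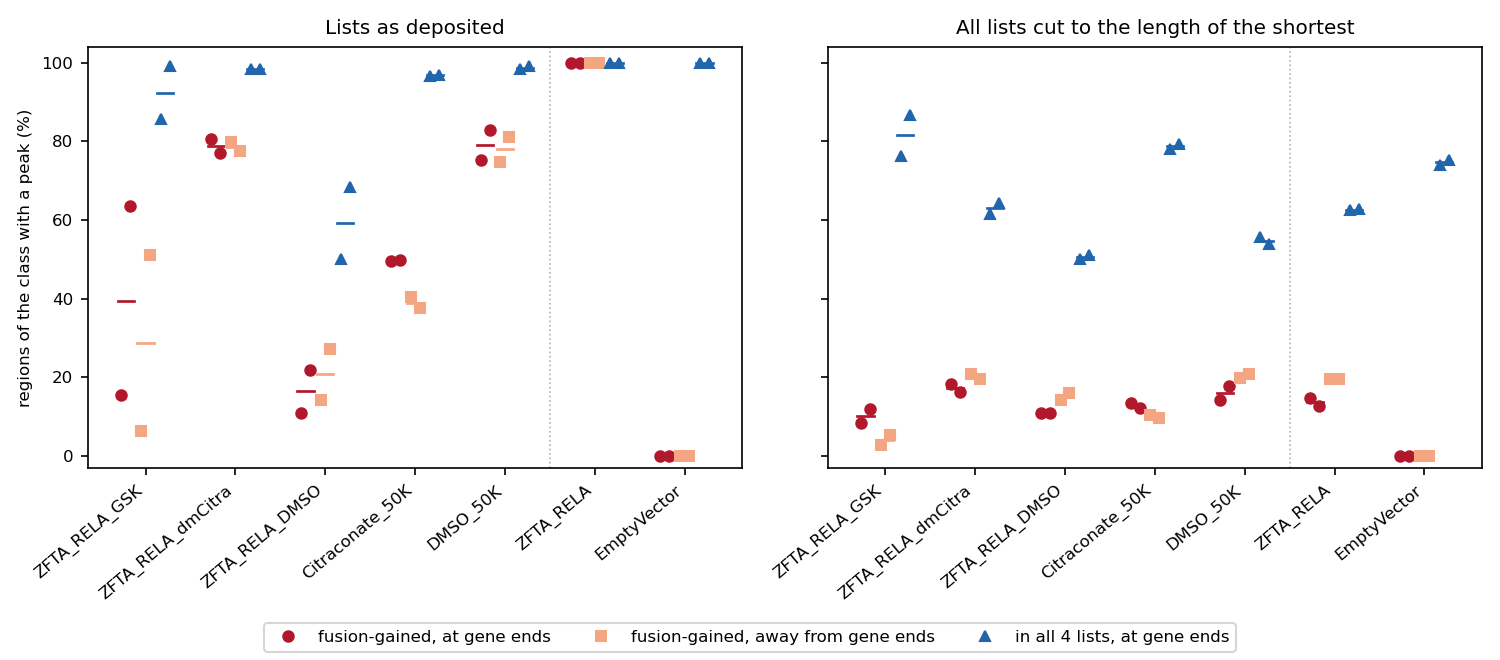
Percent of regions with a peak (y axis) in each library (points) with the mean of the 2 libraries of a group (bars), for members, gained regions away from gene ends and shared gene-end regions, in the lists as deposited (left) and in lists cut to 11806 peaks (right). ZFTA_RELA and EmptyVector, right of the dotted line, chose the regions, and the mean of members in ZFTA_RELA_dmCitra is 78.8% at left and 17.3% at right.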

How the data were processed

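ATAC-seq peak lists of 14 libraries, 2 in each of 7 groups, were used, made from 50000 cells per library, per the labels' protocols. The submitters' processing notes name the build mm10 and the tools BWA, SAMtools and Picard. The peak names in each deposited list show that MACS2 made a separate list for every library. The settings of MACS2 and any shift for the Tn5 offset are not stated in what was used here. The deposited fold enrichment (a ratio over background), the deposited −log10 q-value and the deposited summit offset are the authors' own, and served only to rank, filter or describe peaks within a list. The deposited score and −log10 p-value were not used.

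Peaks on chromosomes 1 to 19 were used, merged where they overlapped by at least 1 bp. Gene positions and promoter sequences came from RefSeq tables of GRCm38.p6. They hold 20665 protein-coding genes on these chromosomes, 16457 of them with a strand. Promoters of chromosome 18 were not used. No genome sequence was used, so motifs were not searched outside promoter windows. The lists hold no read counts, so no counting error can be given.

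Groups came from the titles. Shares of members were compared in two-sided permutation tests with exact enumeration (numpy 2.4.6, pandas 2.3.3, Python 3.11.15). Calls need a peak in both libraries of a group and in neither of the other. Members and lists were chosen with earlier results of these data known. Named genes were up to 4 members of each of 18 gene lists, the 20 best-ranked members, those with a peak in all 10 or in none of the other lists, the 5 best-ranked called in each direction, those nearest to the 1 kb limit, genes with several members and a few genes of the study. Other members of the lists and the chromosomal groups, the neighbours of an NF-kB match and the split by CpG and TGANTCA were chosen after their values were seen. Alternatives were −log10 q of at least 5, lists of equal length, 50% overlap, windows of 500 bp and 2 kb, no chromosome 4, ZFTA_RELA as control, leaving out each library in turn and replicate blocks. On lists simulated for a check, the calling recovered the regions put in. Some results under the naming rule are left out here.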

Additional observations from a re-analysis of the deposited data

Results flagged for a closer look

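The difference in the share of members with a peak between citraconate libraries and their controls went opposite ways in the 2 sets of libraries. In the set marked 50K the cell line label differs together with citraconate, so that difference is not a measure of citraconate alone. Both ZFTA_RELA_dmCitra libraries lay above both ZFTA_RELA_DMSO libraries, by 62.3 points on average, while both Citraconate_50K libraries lay below both DMSO_50K libraries, by -29.5 points. The first difference minus the second was 91.8 points, and this difference was not tested. List lengths moved with it in both sets, and the DMSO_50K libraries, labelled as empty vector, held peaks in most members. At equal list length the differences were 6.32 and -3.16 points.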

How the results depend on the processing

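The number of members was 491 with a window of 500 bp, 1313 with 2 kb, and between 833 and 1143 when 1 of the 4 libraries of the rule was left out, the highest being without ZFTA_RELA replicate 2. It was 575 at equal list length. The NF-kB list had 5 genes with a member at 500 bp and 8 at 2 kb, and the interferon list 8 and 9. The GSK343 difference was -0.8564 points at equal list length and -60.54 points with ZFTA_RELA as control, and it ranged from -1.054 points (without ZFTA_RELA_GSK replicate 2) to 47.04 points (without ZFTA_RELA_GSK replicate 1). The citraconate difference in fusion cells was -21.21 points with ZFTA_RELA as control, by construction of the rule, and 53.81 to 67.85 points when 1 library was left out. The difference between Citraconate_50K and DMSO_50K stayed negative, from -33.33 to -25.56 points when 1 library was left out. With members set against gained regions away from gene ends, the mean was -0.469 points at equal list length (p = 0.766 in the exact test), 5.931 points with a 500 bp window (p = 0.0352, exact), 5.638 points without both ZFTA_RELA_DMSO libraries (chosen after the data were seen), and 2.461 to 5.561 points when 1 library was left out. With the replicate numbers as a block the 3 differences were 22.99, 62.32 and -29.45 points. Each had p = 0.5 in an exact sign-flip test. Over members, replicate 1 minus replicate 2 presence correlated between a group and its control at 0.0559, 0.0573 and 0.0294. These low values give no ground for pairing same-numbered libraries. The cause of these shifts was not tested. With 2 libraries per group no share test could pass 0.05, and a missing peak may be a region under the caller's threshold.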
